A study of Homo sapiens with 24 samples.

Results

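NDI1/AOX cells collected on day 9 of doxycycline treatment were compared with NDI1/AOX cells of day 0, and the comparison was taken from the sample titles: 3 microarrays of day 9 and 3 of day 0, or 6 of the 24 arrays of the series. The cells derive from HEK293, an immortalized line from human embryonic kidney (the labels name HEK293, and the study's methods name its derivative HEK293T). Cells of both days carried a doxycycline-inducible transgene for a dominant-negative form of POLG, the catalytic subunit of the polymerase that copies mitochondrial DNA (mtDNA), and both expressed NDI1 and AOX ectopically. Day 9 cultures had received doxycycline continuously, whereas day 0 cultures had not been induced, and both grew in high glucose medium with uridine and pyruvate. The arrays of a group came from independent cultures, each culture round began from a common starter culture, and the day 9 cells of a round were pooled over flasks, as the study's account of its design gives it. Whether the NDI1/AOX line is a clone is not given in the sources used here. Doxycycline, induction of the transgene, mtDNA loss and time in culture separate the days together and cannot be told apart. DN-POLG cells, which carry the same inducible transgene without NDI1 and AOX, were also profiled on days 9 and 0 with 3 arrays each and were used to test whether the response differed.

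The mtDNA encodes core subunits of respiratory complexes I, III and IV and of the ATP synthase, so that cells which stop replicating it lose electron transport and, with it, the main route for turning NADH back into NAD+. NDI1, from yeast, is an NADH dehydrogenase made of a lone polypeptide that hands electrons from NADH to ubiquinone without pumping protons, and AOX, an alternative oxidase absent from mammals, hands electrons from ubiquinol to oxygen. Together they bypass complexes I, III and IV, so that NADH can still be oxidized in mitochondria without mtDNA.

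POLG checks the labels, since the transgene should raise it. Its brightest probe set had a signal of 4035, 2468 and 447 in day 9 replicates 1, 2 and 3, against 274, 197 and 266 in the day 0 replicates, where signal is the linear MAS5 value of an array scaled to a trimmed mean of about 500. All 3 day 9 arrays lay above all 3 day 0 arrays, but replicate 3 of day 9 was the lowest of its group by far. On the log2 scale the difference was 2.76 with a standard error of 0.53 (adjusted p = 0.00332 from limma, after Benjamini-Hochberg adjustment over 23132 probe sets), and without day 9 replicate 3 it was 3.70 (adjusted p = 5.08e-05). A second POLG probe set read 1327, 1033 and 963 in day 9 cells and 858, 956 and 725 in day 0 cells, and this difference of 0.38 did not pass (adjusted p = 0.469).

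The arrays of each group were otherwise close to each other. The SD of the log2 signal had a median over genes of 0.19 in day 9 cells and 0.13 in day 0 cells, and the median signal of all probe sets was 55.0 to 73.9 on day 9 arrays and 67.2 to 69.6 on day 0 arrays. The ratio of 3′ to 5′ control probe sets, a measure of RNA integrity, was 1.27 to 1.52 on day 9 arrays and 1.14 to 1.18 on day 0 arrays for ACTB and 0.991 to 1.04 on day 9 arrays and 0.936 to 0.977 on day 0 arrays for GAPDH (two-sided exact permutation p = 0.1 for each, the smallest that 3 arrays against 3 allow), and its part in the results was not tested. Of 10 genes listed as marks of HEK293 cells 6 passed the signal filter, with a median log2 fold change of -0.58 and 4 of the 6 below 0. EYA1 and SALL2 were called lower and are described with the developmental regulators. NEFL, a neurofilament gene, read 6032, 6331 and 4258 on day 9 and 8423, 11434 and 11918 on day 0 on its brightest probe set, with all day 9 arrays lower (-0.94, adjusted p = 0.0755 from limma, but 0.019 in the model of the 6 NDI1/AOX arrays alone). The other NEFL sets did not follow, with 0.08 (adjusted p = 0.837) and 0.09 (adjusted p = 0.95). GATA3 read 1814 to 2090 on day 9 and 1675 to 1920 on day 0. Of 17 mesenchymal markers 13 passed the filter and 0 were called.

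The array holds probe sets for 7 mtDNA transcripts, and 3 were called lower. ND6, a complex I subunit and the mRNA encoded on the light strand, had a signal of 238, 409 and 549 on day 9 and 2463, 2754 and 2776 on day 0 (log2 fold change -2.82, adjusted p = 0.00169 from limma). ATP6, of the ATP synthase, had 5443, 3790 and 3797 on day 9 and 19102, 20972 and 19778 on day 0 (-2.22, adjusted p = 0.00141). COX2, of complex IV, had 17166, 12675 and 17194 on day 9 and 36310, 37608 and 33823 on day 0 (-1.21, adjusted p = 0.0038). For these 3 transcripts each day 9 array lay far below each day 0 array, and the day 9 replicate with the weakest POLG signal was not set apart.

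COX1, another complex IV subunit, read 44557, 45266 and 39390 on day 9 and 45069, 42285 and 39323 on day 0, where the groups overlapped (0.03, adjusted p = 0.958 from limma, and -0.28 after quantile normalization). These signals are near the top of the range over genes, whose highest mean log2 signal was 15.6, and whether they were saturated was not tested. ND2 and ND4, of complex I, differed by -0.20 each on the log2 scale (adjusted p = 0.627 for ND2 and adjusted p = 0.575 for ND4 from limma). The days overlapped for ND2. For ND4 all day 9 arrays were lower, with 20128, 18539 and 17810 on day 9 and 21145, 22700 and 21038 on day 0. Another ND4 probe set read 16147, 14749 and 14617 on day 9 and 20745, 22809 and 21451 on day 0 (-0.51, adjusted p = 0.115). COX3 read 1196, 940 and 120 on day 9 and 1922, 2362 and 3017 on day 0, so that all day 9 arrays were lower and replicate 3 was the lowest (-2.22, adjusted p = 0.137, and -1.17 with adjusted p = 0.497 without day 9 replicate 3). The plot of POLG and the mtDNA transcripts shows the arrays one by one.

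**Figure D1:**
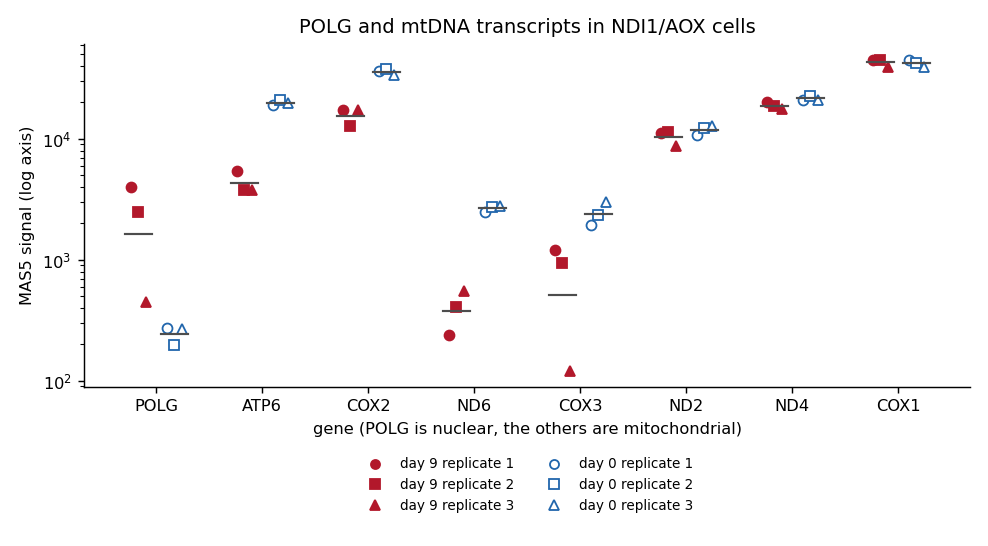
MAS5 signal (log axis) of POLG and of the 7 mtDNA transcripts on the array in NDI1/AOX cells, with filled red marks for the 3 day 9 arrays left of open blue marks for the 3 day 0 arrays, a mark shape per replicate and a bar at the mean of the log2 signals. ATP6, COX2 and ND6, which were called lower, lie apart between days, and so do COX3 and ND4, which were not called. COX1 and ND2 overlap, and day 9 replicate 3 is the lowest day 9 array for POLG (447) and COX3 (120).

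Most genes that changed were lower on day 9. Of 12104 genes tested, each read from its brightest probe set, 1395 were called at an adjusted p under 0.05 (11.5%), 194 of them higher (1.6%) and 1201 lower (9.92%) in day 9 cells. By at least 1 on the log2 scale, 110 called genes were higher and 875 lower, and by at least 2, 14 were higher and 153 lower. Without adjustment 26.1% of genes had p under 0.05, 7.93% higher and 18.2% lower. The median log2 fold change of all tested genes was -0.03. In 1394 of the called genes the arrays of the days did not overlap, as against 54.3% of all tested genes (25.0% with day 9 above and 29.3% with day 9 below). Without day 9 replicate 3 the count was 835 (82 higher and 753 lower), 814 of the 1395 genes were still called, and all 1395 kept their sign. Leaving out day 0 replicate 1, 2 or 3 gave 869, 853 and 708 genes, and leaving out day 9 replicate 1 or 2 gave 1028 and 1018. Of the 1395 genes, 629 passed whichever array was left out. The balance of directions depended on scaling, since 13.9% of the calls were higher as deposited, 23.5% after quantile normalization and 30.9% with all arrays set to one median, which moved the median of all genes up by 0.14.

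The 14 largest rises among genes above the filter level in both groups included POLG and are described here. NF1, the RAS GTPase-activating protein neurofibromin, had a signal of 1075, 1233 and 764 on day 9 and 161, 154 and 77.1 on day 0 (3.02 on the log2 scale with a standard error of 0.56, adjusted p = 0.00243 from limma), from its only tested probe set. The probe set annotated to SNORA72, a box H/ACA RNA from an intron of RPL30, had 592, 1068 and 518 on day 9 and 72.4, 102 and 92.4 on day 0 (2.97, adjusted p = 0.000231). RPL30 itself did not pass (0.37, adjusted p = 0.222). TAF1D, a host of small nucleolar RNAs and a factor of RNA polymerase I, had 3162, 5153 and 2341 on day 9 and 1038, 1057 and 522 on day 0 (2.02, adjusted p = 0.00104). In all of these the day 9 arrays were well above the day 0 arrays, and no omission of an array ended the call.

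CCN1, a secreted matricellular protein also known as CYR61 and a target of YAP, had 20548, 18583 and 17324 on day 9 and 5296, 5479 and 2729 on day 0 (2.13, adjusted p = 0.00197 from limma). Its relative CCN2 had 4903, 3153 and 1928 on day 9 and 698, 728 and 287 on day 0 (2.56, adjusted p = 0.0389). The days were apart for both, but the call of CCN2 was lost with any of the 6 arrays left out (adjusted p = 0.0556 to 0.171). INF2, a formin that builds actin filaments, had 982, 932 and 1044 on day 9 and 327, 270 and 244 on day 0 (1.82, adjusted p = 0.00447), and STARD13 had 644, 574 and 590 on day 9 and 100, 166 and 107 on day 0 (2.31, adjusted p = 0.000197). A dimmer INF2 probe set did not follow (0.15, adjusted p = 0.876). SFXN3, a mitochondrial serine transporter, had 1036, 1885 and 961 on day 9 and 290, 378 and 254 on day 0 (2.03, adjusted p = 0.00297). Its 2 other probe sets gave log2 fold changes of 0.43 and 0.22 and did not pass, so the rise belongs to the brightest set. Of the remaining large rises, LINC00115 was higher by 2.13, H2BC21, a histone H2B gene, by 1.89, and KRTAP19-1, annotated as a keratin-associated protein, by 1.89. The call of H2BC21 was lost without day 9 replicate 2 or day 0 replicate 3 (adjusted p = 0.0574 to 0.0638).

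**Figure D2:**
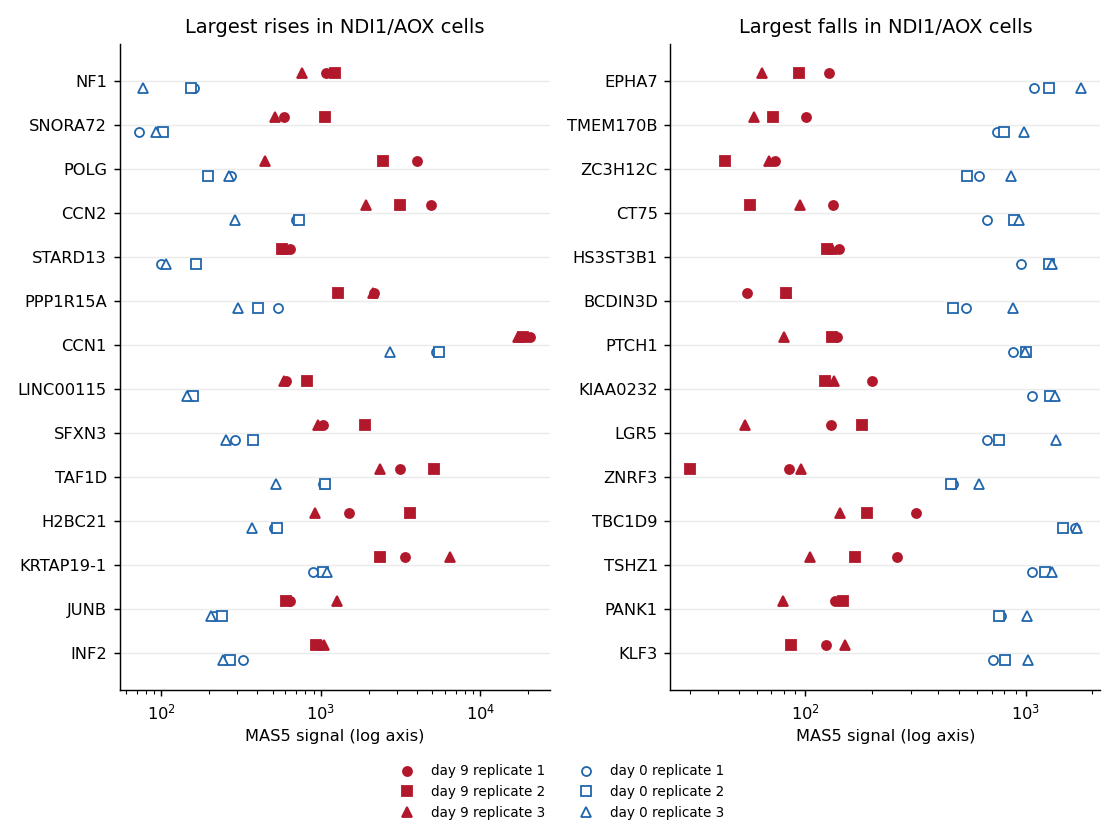
MAS5 signal (log axis) on each array for the 14 genes with the largest called rise (left) and the 14 with the largest called fall (right) in NDI1/AOX cells among genes above the filter level in both groups, with the 3 day 9 arrays (filled red) above the 3 day 0 arrays (open blue) in each row. The days do not overlap in any row, and the falls run to day 9 signals of 29.9 (ZNRF3) against 457 or more on day 0.

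Genes known to be switched on within minutes of growth factor or stress signals moved in both directions. Of 28 tested immediate early genes 4 were higher on day 9 (14.3%, against 1.6% of all genes) and 2 lower (7.14%, against 9.92%), with a median log2 fold change of 0.24. Without day 9 replicate 3, 2 were higher and 2 lower. JUNB, an AP-1 subunit, had 639, 606 and 1255 on day 9 and 214, 238 and 203 on day 0 (1.85, adjusted p = 0.00199 from limma). NR4A1, an orphan nuclear receptor, had 155, 150 and 112 on day 9 and 32.2, 23.8 and 24.1 on day 0, below the filter level, so that the size of its rise (2.38, adjusted p = 0.00376) is uncertain. Both stayed called whichever array was left out. DUSP1, a phosphatase that turns off MAP kinases, had 9410, 7455 and 12128 on day 9 and 3971, 3302 and 2951 on day 0 (1.49, adjusted p = 0.0325), and DUSP5, which acts on ERK, was higher by 0.96 (adjusted p = 0.0291). Each of these 2 calls was lost without day 9 replicate 1 or 3 or any day 0 array (adjusted p = 0.0619 to 0.127 for DUSP1 and 0.0571 to 0.121 for DUSP5). ATF3, which also belongs to the stress response, read 23087, 22615 and 20731 on day 9 and 7967, 7230 and 4760 on day 0, with all day 9 arrays higher, but did not pass in the model of 18 arrays (1.77, adjusted p = 0.0765), whereas it did in the model of the 6 NDI1/AOX arrays alone (adjusted p = 0.00259). A dimmer ATF3 probe set was called higher in the model of 18 arrays, with 2713, 2718 and 2428 on day 9 and 472, 380 and 285 on day 0 (2.82, adjusted p = 0.00969). ZFP36L2, an RNA-binding protein that shortens the life of AU-rich mRNAs, had 1070, 873 and 1035 on day 9 and 2005, 2074 and 2203 on day 0 (-1.08, adjusted p = 0.00386). KLF2, a Kruppel-like factor, was lower (-0.90, adjusted p = 0.0286), which was lost with any array left out (adjusted p = 0.0557 to 0.108).

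A cAMP response element lies near the start of 5 genes that rose, namely DUSP1, NF1, PABIR3, PPP1R15A and SLC25A25. The palindrome TGACGTCA was searched on both strands, which read alike, in the 250 bases before the RefSeq start of each gene (GRCh38.p14), and it was chosen after the values had been seen. PPP1R15A, which brings protein phosphatase 1 to eIF2α and so ends the block on translation, had a signal of 2168, 1284 and 2115 on day 9 and 543, 401 and 303 on day 0 (log2 fold change 2.16, adjusted p = 0.0159 from limma). Its call was lost without day 9 replicate 1 or 3 or day 0 replicate 2 or 3 (adjusted p = 0.051 to 0.0793). SLC25A25, a calcium-regulated carrier of ATP-Mg and phosphate across the inner mitochondrial membrane, had 749, 529 and 823 on day 9 and 293, 264 and 253 on day 0 (1.35, adjusted p = 0.0271), a call lost without day 9 replicate 1 or 3 or any day 0 array (adjusted p = 0.0625 to 0.107). The call of PABIR3 (0.77, adjusted p = 0.0378) was lost with any array left out (adjusted p = 0.0501 to 0.166). The element lies 58 to 51 bases before the start of PPP1R15A, 125 to 118 before that of DUSP1 and 200 to 193 before that of SLC25A25, and is in capitals in these windows, read 5′ to 3′ along the gene, to show the motif in its setting.
PPP1R15A (chr19:48872327-48872406, plus strand): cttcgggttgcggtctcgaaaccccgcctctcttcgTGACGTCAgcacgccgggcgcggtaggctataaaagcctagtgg
DUSP1 (chr5:172771277-172771356, minus strand): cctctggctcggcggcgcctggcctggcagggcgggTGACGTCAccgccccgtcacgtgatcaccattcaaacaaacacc
SLC25A25 (chr9:128098271-128098350, plus strand): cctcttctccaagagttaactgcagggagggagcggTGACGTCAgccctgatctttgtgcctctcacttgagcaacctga
The share of promoters with the motif was close in all groups of tested genes. It was present in 5 of 160 genes called higher that have a RefSeq promoter (3.12%), 29 of 969 called lower (2.99%) and 356 of 9891 tested (3.6%), as against 2.03% of all 27305 promoters of the same length.

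EPHA7 headed the 14 largest falls. EPHA7, an ephrin receptor, had a signal of 128, 93.8 and 63.6 on day 9 and 1094, 1281 and 1781 on day 0 (-3.89 on the log2 scale with a standard error of 0.47, adjusted p = 0.000146 from limma), and 2 of its 3 other probe sets were also called lower. PTCH1, the Hedgehog receptor and itself a Hedgehog target, had 139, 132 and 80.0 on day 9 and 873, 1006 and 998 on day 0 (-3.07, adjusted p = 5.54e-05), although its dimmer probe set did not follow (0.58, adjusted p = 0.316). HS3ST3B1, which sulfates heparan chains, had 143, 125 and 131 on day 9 and 951, 1274 and 1311 on day 0 (-3.13, adjusted p = 0.000338). For each of these genes day 9 signals were a small part of day 0 signals on every array, day 9 replicate 3 included.

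LGR5, a receptor for R-spondins, had 131, 181 and 52.9 on day 9 and 666, 759 and 1369 on day 0 (-3.04, adjusted p = 0.0422 from limma), and its call was lost with any array left out (adjusted p = 0.0539 to 0.169). PANK1, a kinase of coenzyme A synthesis, had 136, 148 and 79.4 on day 9 and 769, 753 and 1016 on day 0 (-2.84, adjusted p = 0.00304). KLF3, a transcriptional repressor, had 124, 86.1 and 151 on day 9 and 710, 804 and 1023 on day 0 (-2.84, adjusted p = 0.00069), while its 3 dimmer probe sets gave -0.44 to -0.82 and did not pass. The days were far apart for all 3 genes on the brightest probe set. TSHZ1, a teashirt zinc finger protein of development, had a log2 fold change of -2.85, ZC3H12C, an RNA-binding protein of the regnase family, of -3.46, TMEM170B of -3.48, BCDIN3D, an RNA methyltransferase, of -3.08, KIAA0232 of -3.05, TBC1D9 of -2.98 and CT75 of -3.21, each with adjusted p between 0.000391 and 0.00617. The dimmer probe sets of TBC1D9 (0.19, adjusted p = 0.772) and CT75 (-0.09, adjusted p = 0.908) did not follow. Those of TSHZ1 (-1.66) and KIAA0232 (-2.59) were also called lower.

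Wnt signaling genes were lower at several levels of the pathway. Wnt ligands bind frizzled receptors with LRP, ROR or RYK coreceptors, which spares β-catenin from a destruction complex of APC, axin and GSK3, while ZNRF3 and RNF43 remove frizzled receptors from the surface unless R-spondin and LGR5 restrain them. Of 36 tested genes of Wnt signaling and planar polarity 11 were lower (30.6%, against 9.92% of all genes) and 1 was higher (2.78%, against 1.6%) on day 9, or 8 and 0 without day 9 replicate 3, with a median log2 fold change of -0.43. Among the ligands, WNT5A had a signal of 187, 154 and 115 on day 9 and 545, 685 and 872 on day 0 (-2.21, adjusted p = 0.00826 from limma). WNT5B had 120, 81.2 and 41.3 on day 9 and 325, 270 and 271 on day 0 (-1.96, adjusted p = 0.00828, and 0.0504 without day 9 replicate 3). Neither ligand overlapped between days, and replicate 3 was the lowest day 9 array for both.

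The receptor FZD4 had 62.7, 97.2 and 102 on day 9 and 267, 231 and 249 on day 0 (-1.54, adjusted p = 0.00516 from limma). FZD7 (-1.15, adjusted p = 0.0297) and the coreceptor ROR1 (-1.62, adjusted p = 0.0428, with a dimmer probe set called higher by 1.54) were called lower, calls that were lost with any array left out (adjusted p = 0.058 to 0.109 for FZD7 and 0.0663 to 0.151 for ROR1). VANGL1, of planar polarity, was lower on all 3 of its probe sets, with 269, 250 and 232 on day 9 and 705, 600 and 635 on day 0 on the brightest (-1.37, adjusted p = 0.00104) and with -3.19 and -4.21 on the others. Of the destruction complex, APC had 617, 301 and 571 on day 9 and 1344, 1185 and 1457 on day 0 (-1.48, adjusted p = 0.0133, but 0.0596 and 0.0667 without day 0 replicate 3 or day 9 replicate 2). AXIN2, which is also a feedback target of β-catenin, had 146, 310 and 168 on day 9 and 507, 652 and 580 on day 0 (-1.55, adjusted p = 0.00342). ZNRF3 had 84.6, 29.9 and 95.0 on day 9 and 465, 457 and 614 on day 0 (-3.03, adjusted p = 0.000134). The transcription factor TCF7L2 was lower on its brightest of 6 probe sets (-1.08, adjusted p = 0.0101). GSK3B was lower on its brightest set (-1.84, adjusted p = 7.27e-05) and on a dim one (-4.03). Another GSK3B set read 536, 558 and 532 on day 9 and 413, 344 and 261 on day 0 (0.70, adjusted p = 0.239). Dimmer sets gave -0.97 and 0.81 for APC and 0.34 for AXIN2, and these did not pass (adjusted p = 0.0529, 0.165 and 0.633). CTNNB1, which encodes β-catenin, read 9894, 11428 and 11056 on day 9 and 8851, 8620 and 8520 on day 0 (0.31, adjusted p = 0.45). RNF43 was the member called higher, by 1.32 (adjusted p = 0.0442), which was lost with any array left out (adjusted p = 0.0502 to 0.151).

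Several transcription factors of the embryonic kidney and nervous system were lower too. Of 30 such regulators tested, 10 were lower (33.3%, against 9.92% of all genes) and 1 was higher (3.33%, against 1.6%), with a median of -0.48. Without day 9 replicate 3, 7 were lower and 1 was higher. ID4, an inhibitor of bHLH factors, had a signal of 2658, 2438 and 2195 on day 9 and 8067, 8587 and 9173 on day 0 (-1.83, adjusted p = 0.00255 from limma), whereas its relative ID3, a BMP target, had 3355, 4088 and 3648 on day 9 and 1381, 1485 and 1343 on day 0 (1.39, adjusted p = 0.00445). The 2 ID genes thus moved opposite ways, with no overlap between days in either. SALL2, a spalt-like zinc finger factor, had 780, 635 and 634 on day 9 and 1458, 1633 and 1597 on day 0 (-1.2, adjusted p = 0.00234). SIM2, of the bHLH-PAS family, had 267, 238 and 152 on day 9 and 703, 752 and 612 on day 0 (-1.69, adjusted p = 0.00063), and EYA1, a transcriptional coactivator of kidney and ear development, had 128, 87.4 and 74.4 on day 9 and 261, 194 and 207 on day 0 (-1.22, adjusted p = 0.00399). WT1, the Wilms tumor factor, was lower (-1.30, adjusted p = 0.0461, lost with any array left out at 0.0557 to 0.144), and SIX4, MEIS2, EYA4, OSR2 and SIM1 made up the other calls. SIX4 lost its call without day 9 replicate 2 or day 0 replicate 1 or 2 (adjusted p = 0.051 to 0.0597), MEIS2 without day 9 replicate 3 or day 0 replicate 3 (0.0511 to 0.0591), EYA4 without day 9 replicate 2 or 3 or day 0 replicate 3 (0.0512 to 0.0718) and OSR2 without day 9 replicate 2 or any day 0 array (0.055 to 0.0729). Of 23 HOX genes tested 4 were lower (17.4%, against 9.92% of all genes) and 0 higher, with a median of -0.24. Without day 9 replicate 3, 2 HOX genes were lower. HOXB3 had 481, 658 and 515 on day 9 and 1216, 1119 and 1447 on day 0 (-1.2, adjusted p = 0.00391), and HOXD8 (-1.14), HOXC9 (-1.63) and HOXD4 (-1.43) were lower, of which HOXC9 lost its call without day 9 replicate 3 (adjusted p = 0.0517) and HOXD4 without that array or day 0 replicate 2 (adjusted p = 0.0505 to 0.06).

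The largest family among the falls was that of zinc finger genes. ZNF proteins mostly hold arrays of C2H2 fingers, many with a KRAB domain that recruits repressors of transposable elements. Of 356 tested ZNF genes 83 were lower (23.3%) and 1 was higher (54 and 0 without day 9 replicate 3), with a median of -0.49, and 273 lay below 0. ZNF genes are dim, with a median of 8.41 for the mean log2 signal, and the brightest genes were called lower least often. When all tested genes were cut into 4 bins of equal size by mean signal, from the lowest to the highest, 22.8%, 30.3%, 17.5% and 4.00% of ZNF genes were called lower, against 9.69%, 15.8%, 10.4% and 2.50% of the other genes in that bin. ZNF239 had a signal of 185, 113 and 132 on day 9 and 1015, 816 and 931 on day 0 (-2.71, adjusted p = 0.000302 from limma). ZNF606 had 123.3, 117 and 49.7 on day 9 and 510, 430 and 576 on day 0 (-2.49, adjusted p = 0.000302), and ZNF225 (-1.92, adjusted p = 0.000213) and ZNF189 (-1.91, adjusted p = 0.000338) were lower. The day 9 arrays of these genes all lay below the day 0 arrays. ZNF787 was the member called higher, by 0.93 (adjusted p = 0.0275), lost without day 9 replicate 1 or 3 or day 0 replicate 2 or 3 (adjusted p = 0.0797 to 0.101). Of 37 ZBTB genes, which pair C2H2 fingers with a BTB domain, 8 were lower (21.6%, against 9.92% of all genes) and 1 higher (2.7%, against 1.6%), with a median of -0.39. Without day 9 replicate 3, 4 were lower and 0 higher. ZBTB4, a reader of methylated DNA, had 412, 267 and 277 on day 9 and 941, 917 and 886 on day 0 (-1.55, adjusted p = 0.000998), and ZBTB14 was lower too (-1.91, adjusted p = 0.00101), while ZBTB43 was the member called higher, a call lost with any array left out (adjusted p = 0.0755 to 0.149).

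**Figure D3:**
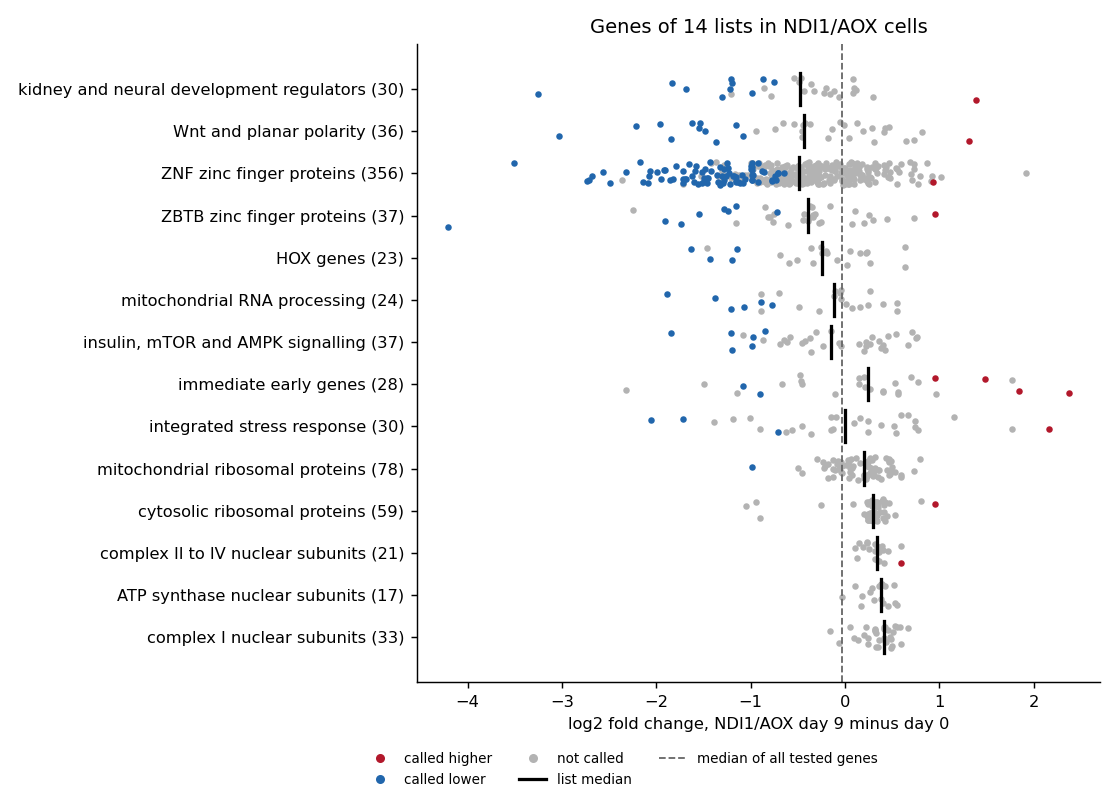
Log2 fold change, NDI1/AOX day 9 minus day 0, of the tested genes of 14 lists (number of genes in brackets), a point per gene with a random vertical shift, red where called higher, blue where called lower and gray where not called, with a black bar at the list's median and a dashed line at the median of all tested genes (-0.03). Points of the developmental, Wnt and zinc finger lists reach far to the left, while those of complex I and of the cytosolic ribosome cluster a little right of 0 with 0 and 1 genes called.

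Nuclear genes for the respiratory chain, in contrast, sat slightly above 0. Of 33 nuclear subunits of complex I, the enzyme that NDI1 stands in for, 31 had a log2 fold change above 0, with a median of 0.41 (range -0.16 to 0.67). The day 9 arrays lay above the day 0 arrays in 27 of them, against 25.0% of all tested genes. By limma 0 were called, but 16 were called higher and 0 lower in the model of the 6 NDI1/AOX arrays alone, where 12.5% of all genes were called higher. The 17 nuclear subunits of the ATP synthase had a median of 0.38 and 0 calls, and the 21 nuclear subunits of complexes II to IV a median of 0.34 and 1 call, UQCRB of complex III (0.60, adjusted p = 0.0407, lost with any array left out at 0.0811 to 0.138). The scaling of the arrays bears on these medians: after quantile normalization they were 0.20, 0.11 and 0.08. Such genes are bright, with a median of 12.94 for the mean log2 signal in complex I. Among all tested genes, the bin of highest mean signal had a median log2 fold change of 0.16, or 0.03 after quantile normalization. Cytosolic ribosomal proteins had a median of 0.30 over 59 genes, 0.03 after quantile normalization, with 1 called higher, RPL22L1, a paralog of RPL22, with a signal of 3976, 4067 and 3039 on day 9 and 1856, 1937 and 1862 on day 0 (0.96, adjusted p = 0.00419). Of 47 assembly factors 3 were lower (6.38%, below the 9.92% of all genes). They were SDHAF2 for complex II (-1.22, adjusted p = 0.013), SCO2 for complex IV (-1.27, adjusted p = 0.0179) and NDUFAF1 for complex I (-0.78, adjusted p = 0.0426). SDHAF2 lost its call without day 9 replicate 2 or day 0 replicate 3 (adjusted p = 0.057 to 0.0648), SCO2 without day 9 replicate 2 or 3 or day 0 replicate 2 or 3 (0.0527 to 0.0728) and NDUFAF1 with any array left out (0.0696 to 0.155). Of 29 import genes 2 were higher (6.9%, against 1.6% of all genes), GFER, a sulfhydryl oxidase of the intermembrane space (1.12, adjusted p = 0.0138), and PAM16, of the import motor (0.85, adjusted p = 0.0334). Of 38 SLC25 carriers 2 were higher (5.26%), SLC25A25 and the S-adenosylmethionine carrier SLC25A26 (0.56, adjusted p = 0.0485). GFER lost its call without day 9 replicate 3 or day 0 replicate 2 or 3 (adjusted p = 0.0537 to 0.0723), PAM16 without day 9 replicate 1 or 3 or any day 0 array (0.068 to 0.127) and SLC25A26 with any array left out (0.0756 to 0.197).

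Factors that process mitochondrial RNA were among the mitochondrial genes that fell. Of 24 tested, 6 were lower (25.0%, against 9.92% of all genes) and 0 higher, and 6 were lower without day 9 replicate 3 as well (median -0.12). TRMT10C, a subunit of mitochondrial RNase P that also methylates tRNAs, had a signal of 744, 592 and 689 on day 9 and 2383, 2371 and 2725 on day 0 (-1.89, adjusted p = 0.000533 from limma). MRM2, which methylates the large mitochondrial rRNA, had 1094, 765 and 1194 on day 9 and 2580, 2363 and 2873 on day 0 (-1.38, adjusted p = 0.00306). TRMU, which thiolates mitochondrial tRNAs (-1.21, adjusted p = 0.0113), PUS1, a pseudouridine synthase (-0.89, adjusted p = 0.00661), FASTKD1, of a family that binds mitochondrial RNA (-0.77, adjusted p = 0.0105), and MRM1, another rRNA methyltransferase (-1.07, adjusted p = 0.0342), were also lower. Of these 6 genes only MRM1 lost its call with single arrays left out, without day 9 replicate 2 or any day 0 array (adjusted p = 0.0561 to 0.149). By comparison 0 of 23 genes of mtDNA replication and transcription were called (median -0.23, with 2 higher and 7 lower in the model of the 6 NDI1/AOX arrays alone, which called 12.5% of all genes higher and 20.7% lower), 1 of 78 mitochondrial ribosomal proteins was lower, MRPL16 (-0.99, adjusted p = 0.0219, lost without day 9 replicate 1 or 3 or any day 0 array at 0.0565 to 0.0925), and 1 of 18 mitochondrial tRNA synthetases was lower, PARS2, on day 9 signals of 68.2, 4.6 and 45.2 against 191, 162 and 217 on day 0, where the day 9 group lay below the filter level (-2.96, adjusted p = 0.0238, lost without day 9 replicate 2 or any day 0 array at 0.0582 to 0.0883). TRAK2, an adaptor that couples mitochondria to kinesin, had 145, 153 and 175 on day 9 and 452, 485 and 703 on day 0 (-1.77, adjusted p = 0.00591).

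Chromatin regulators fell in a few strong cases. KAT6A, a lysine acetyltransferase of the MYST family, had a signal of 639, 463 and 388 on day 9 and 2843, 2679 and 3098 on day 0 (-2.56 with a standard error of 0.20, adjusted p = 1.76e-05 from limma), but its 2 other probe sets, with -0.71 and -0.47, did not pass. ARID1A, a subunit of the BAF remodeling complex, had 933, 607 and 677 on day 9 and 2512, 2069 and 2461 on day 0 (-1.69, adjusted p = 0.00237), and its other sets gave 0.26 and 0.20. CHD9, a chromodomain helicase (-1.54, adjusted p = 0.000285), KDM2A, a histone lysine demethylase (-1.37, adjusted p = 0.000833), and SETD1B, a histone lysine methyltransferase (-1.98, adjusted p = 0.00207), were lower. On the brightest set each had its days apart and kept its call whichever array was left out. Dimmer KDM2A sets gave -0.12 and 0.23 and did not pass. Dimmer CHD9 sets with -1.46 and -1.41 were called lower, and those with -0.52 to 0.10 were not. By list, 3 of 28 acetyltransferases and deacetylases (10.7%), 5 of 42 histone methylation enzymes (11.9%) and 4 of 31 remodeling factors (12.9%) were lower, shares near the 9.92% of all genes, and 1 acetyltransferase, KAT7, was higher. Among these KAT6B lost its call without day 9 replicate 3 or day 0 replicate 2 or 3 (adjusted p = 0.0504 to 0.105), KMT2C without day 9 replicate 3 or day 0 replicate 1 or 3 (0.0501 to 0.0682), KMT2E without day 0 replicate 3 (0.0583), CHD7 without day 9 replicate 3 or day 0 replicate 2 or 3 (0.0591 to 0.0712) and INO80 without day 9 replicate 3 or any day 0 array (0.0545 to 0.178), while NCOA2 (0.0824 to 0.178) and NSD3 (0.0582 to 0.113) lost theirs with any array left out. Dimmer NSD3 sets gave -0.84, which was called lower, and -0.53 to 0.99, which did not pass. Of 16 genes of DNA methylation and its removal 4 were lower (25.0%, against 9.92% of all genes) and 1, UHRF2, was higher (6.25%, against 1.6%). Without day 9 replicate 3, 3 were lower and 0 higher. Of the TET dioxygenases, which use 2-oxoglutarate to oxidize 5-methylcytosine, TET1 had 1159, 963 and 1051 on day 9 and 1877, 1835 and 1783 on day 0 (-0.80, adjusted p = 0.00924), and TET2 was lower as well (-2.23, adjusted p = 0.00118). TDG, a glycosylase that excises oxidized methylcytosine, was lower (-0.89, adjusted p = 0.00892), although its dimmer set gave 0.26 (adjusted p = 0.751). ZBTB38 was the fourth gene called lower. The calls of KAT7, ZBTB38 and UHRF2 were lost with any array left out (adjusted p = 0.0708 to 0.17 for KAT7, 0.0753 to 0.169 for ZBTB38 and 0.0572 to 0.164 for UHRF2).

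Of 37 tested genes of insulin and mTOR signaling 6 were lower (16.2%, against 9.92% of all genes) and 0 higher (against 1.6%), or 5 and 0 without day 9 replicate 3, with a median of -0.15. TSC1, which restrains mTORC1, had a signal of 386, 318 and 333 on day 9 and 760, 878 and 764 on day 0 (-1.21, adjusted p = 0.00246 from limma), and RPS6KB1, the S6 kinase that mTORC1 activates, had 2094, 1895 and 2042 on day 9 and 3931, 3891 and 4039 on day 0 (-0.98, adjusted p = 0.00539). Both a brake and an effector of the pathway were thus lower on every day 9 array. IGF1R, the receptor of insulin-like growth factor, was lower on its brightest probe set (-0.97, adjusted p = 0.0107, but 0.0516 without day 0 replicate 2). Its other sets gave 0.56 (adjusted p = 0.149) and -0.14 (adjusted p = 0.899). RICTOR, of mTORC2, was lower (-1.2, adjusted p = 0.015, but 0.0539 to 0.0598 without day 9 replicate 2 or day 0 replicate 1 or 3), although a dim RICTOR probe set was called higher by 1.31. SESN1, a sestrin that restrains mTORC1, was called lower (-0.85, adjusted p = 0.0345) except without any single day 9 array or day 0 replicate 2 or 3 (adjusted p = 0.0747 to 0.17). Of 22 BCL2 family members and caspases 3 were lower (13.6%, near the 9.92% of all genes) and 1 was higher. BCL2, which keeps cells from apoptosis, had 148, 110 and 65.2 on day 9 and 324, 400 and 412 on day 0 (-1.89, adjusted p = 0.000537), and BCL2L11, which encodes the proapoptotic BIM, had 1348, 1766 and 1550 on day 9 and 798, 788 and 734 on day 0 (1.00, adjusted p = 0.0129, but 0.0532 to 0.0582 without day 9 replicate 2 or day 0 replicate 3). Of its 7 probe sets another was also called higher (1.29, adjusted p = 0.000566), but a dimmer one was called lower, with 84.2, 78.7 and 115 on day 9 and 387, 456 and 513 on day 0 (-2.30, adjusted p = 0.000418). The proapoptotic BIK was lower on day 9 signals of 20.3, 21.3 and 5.2, below the filter level, against 124, 117 and 109 on day 0 (-3.16, adjusted p = 0.00391), and APAF1, of the apoptosome, was lower (-0.98, adjusted p = 0.0137), a call lost without day 9 replicate 2 or 3 or day 0 replicate 2 or 3 (adjusted p = 0.0511 to 0.0647). Of 23 cytosolic heat shock proteins 3 were lower (13.0%, also near that share) and 0 higher, with DNAJB1, a cochaperone of HSP70, at 660, 440 and 459 on day 9 and 1817, 1608 and 1817 on day 0 (-1.77, adjusted p = 0.000369). The others were HSPA2 (-1.75, adjusted p = 0.00166) and DNAJB4 (-0.95, adjusted p = 0.0321), of which DNAJB4 lost its call without day 9 replicate 1 or 2 or any day 0 array (adjusted p = 0.0719 to 0.142).

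Of 30 integrated stress response genes 1 was higher (PPP1R15A) and 3 were lower in NDI1/AOX cells (median 0.00). Among all genes 1.6% were higher and 9.92% lower there. The model of the 6 NDI1/AOX arrays alone called 8 of the 30 higher and 5 lower, against 12.5% and 20.7% of all genes. The day 9 arrays lay above the day 0 arrays in 10 of the 30 (against 25.0% of all genes). They lay below in 10 (against 29.3%). ATF4 read 27927 to 29670 on day 9 and 19336 to 20769 on day 0 (0.52, adjusted p = 0.236 from limma). DN-POLG cells, in which 1.36% of all genes were called higher and 6.27% lower, had 7 higher and 1 lower (median 0.35). The call of PPP1R15A depended on single arrays, as given above. ASNS, asparagine synthetase, read 22071, 19274 and 15033 on day 9 and 15612, 18204 and 16282 on day 0 in NDI1/AOX cells, with overlap between days (0.16, adjusted p = 0.756 from limma), and differed by 1.66 between days in DN-POLG cells. DDIT4, an inhibitor of mTORC1 that stress induces, had 655, 691 and 690 on day 9 and 2046, 3474 and 3196 on day 0 in NDI1/AOX cells (-2.06, adjusted p = 0.00217), and 0.06 in DN-POLG cells. CEBPB was lower in NDI1/AOX cells (-0.71, adjusted p = 0.0447, lost with any array left out at 0.0725 to 0.152), and so was SLC38A2, an amino acid transporter (-1.72, adjusted p = 0.000302).

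No gene, ASNS and DDIT4 included, was called in the test of the difference between cell models. That test, an interaction term in the limma model over arrays that the models do not share, called 0 of 12104 genes (lowest adjusted p = 0.999). By limma 367 genes, or 3.03%, had an unadjusted p under 0.05 for the difference. An ordinary ANOVA of the same values also called 0. The unadjusted p was 0.000924 for ASNS and 0.00102 for DDIT4. The difference had a median standard error of 0.40, against 0.28 for the response of NDI1/AOX cells alone, and the day 0 arrays of DN-POLG cells were the most scattered (median SD of the log2 signal 0.38). Of the 1395 genes called in NDI1/AOX cells 1369 (98.1%) had the same sign in DN-POLG cells, as against 74.5% of all tested genes. Of these, 664 were also called in DN-POLG cells in the same direction, 47.6% of the calls in NDI1/AOX cells and 71.9% of the 924 calls in DN-POLG cells, and 0 were called in the opposite direction. In DN-POLG cells 8 of the 36 Wnt and planar polarity genes were lower and 0 higher (median -0.50). Of the 30 developmental regulators 6 were lower and 1 higher there (median -0.20), and of the 356 ZNF genes 53 and 1 (median -0.34). The 24 factors of mitochondrial RNA had 5 lower and 0 higher (median -0.11), and the 23 HOX genes 1 and 0 (median -0.34). Genes called higher in NDI1/AOX cells had a median log2 fold change of 1.05 there and 0.60 in DN-POLG cells, and genes called lower had -1.25 there and -0.94 in DN-POLG cells, where larger values in NDI1/AOX cells follow in part from the choice of genes by their result in these cells.

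**Figure D4:**
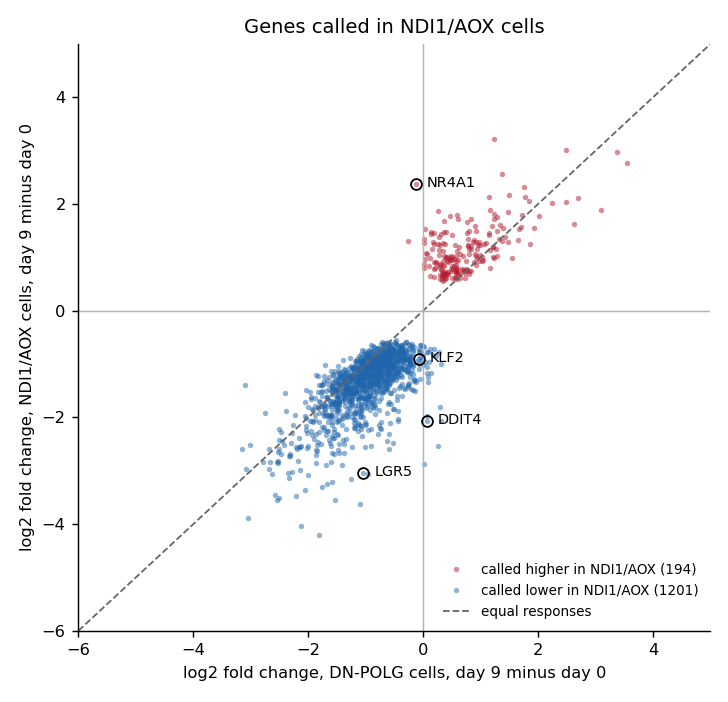
Log2 fold change of day 9 minus day 0 in NDI1/AOX cells (vertical axis) against that in DN-POLG cells (horizontal axis) for the 1395 genes called in NDI1/AOX cells, red where called higher and blue where called lower there, with a dashed line at equal responses. Most points share their sign in both cell models; NR4A1 (2.38 and -0.13), LGR5 (-3.04 and -1.04), DDIT4 (-2.06 and 0.06) and KLF2 (-0.90 and -0.08), ringed, lie off the dashed line, but the test of the difference between cell models called none of them.

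Probe sets of one gene often gave different answers. Of 6187 genes with 2 or more tested probe sets, 1556 were called on at least 1 of them, 156 on every set in one direction, 1325 on some sets only and 75 in both directions. Among 662 genes called lower on the brightest set the median was -1.23 there and -0.68 on their other sets, and in 462 all other sets had the same sign. For 101 genes called higher these medians were 1.00 and 0.47, and 67 had all sets of the same sign. GTF3C4, a subunit of the RNA polymerase III factor TFIIIC, had a signal of 1838, 2010 and 2211 on day 9 and 741, 648 and 593 on day 0 on its brightest set (1.61, adjusted p = 0.00357 from limma), while another set had 74.5, 66.4 and 155 on day 9 and 954, 839 and 1102 on day 0 (-3.39, adjusted p = 0.000142). ZBTB24, a zinc finger factor needed for methylation of centromeric repeats, was likewise lower on its brightest set, with 342, 300 and 393 on day 9 and 821, 727 and 965 on day 0 (-1.28, adjusted p = 0.00889, but 0.0506 without day 0 replicate 3), and higher on 2 others, one of them with 546, 709 and 655 on day 9 and 96.1, 129 and 124 on day 0 (2.45, adjusted p = 0.00224). For both genes the days were apart on each of these sets, in opposite directions. A further GTF3C4 set overlapped between days (0.26, adjusted p = 0.803). MRTFB and TRIO were lower on the brightest set (-1.66 for MRTFB and -1.07 for TRIO) and higher by 3.41 and 3.19 on a dim one whose day 0 signal was 1.4 to 51.7 in MRTFB and 1.8 to 41.6 in TRIO. The call of TRIO was lost without day 9 replicate 3 or day 0 replicate 3 (adjusted p = 0.0611 to 0.0696). Which transcript forms the sets read was not determined here, and a call on the brightest set describes that set.

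Falls were least frequent among the brightest genes and most frequent among the longest. From the lowest to the highest of the 4 bins of mean signal, 10.3%, 16.4%, 10.5% and 2.51% of genes were called lower and 1.32%, 1.98%, 1.78% and 1.32% higher, and the median log2 fold change was -0.18, -0.16, -0.07 and 0.16. After quantile normalization these medians were -0.01, -0.01, 0.01 and 0.03, but 7.01%, 12.3%, 8.36% and 3.50% of genes were still called lower. From the shortest to the longest of 4 bins of gene length (RefSeq), 8.40%, 7.41%, 9.69% and 14.2% were called lower, with medians of 0.09, 0.03, -0.06 and -0.18. The gap between short and long genes was seen within the 3 lower bins of signal. In the second of these, 20.8% of genes in the longest bin were lower and 13.6% of those in the shortest, whereas among the brightest genes the shares were 2.90% for the longest and 3.15% for the shortest. The ACTB and GAPDH ratios given above also differed between days, and their part in this was not tested.

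**Figure D5:**
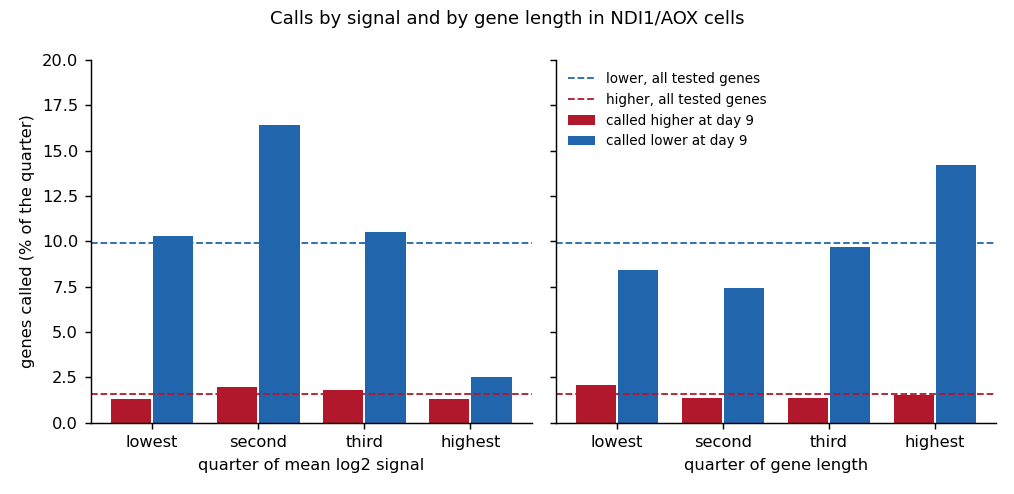
Share of tested genes (%) called higher (red bars) and lower (blue bars) in NDI1/AOX cells on day 9, in 4 bins of equal size by mean log2 signal (left) and by gene length (right), with dashed lines at the shares over all tested genes (1.6% and 9.92%). Calls of lower genes peak at 16.4% in the second signal bin and at 14.2% in the bin of longest genes.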

How the data were processed

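RNA of each culture was hybridized to an Affymetrix HG-U133 Plus 2.0 array, and the authors computed MAS5 signal intensities in Affymetrix Expression Console, which were deposited as a linear intensity per probe set with no missing value. Each array had a trimmed mean of 500 with the outer 2% left out at each end; the scaling target is not given in the sources used here. The number of arrays, 3 per group, limits the precision.

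Log2 of the intensity was taken with nothing added. Probe sets with 1 gene symbol in the platform annotation (41097 of 54675; 1801 had several, 11777 none) were tested where the mean log2 intensity over the 18 HEK293 arrays was at least 5.84 (a signal of 57.2), which left 23132 probe sets of 12104 genes. The 18 arrays entered a limma 3.58.1 model (R 4.3.3) of 6 group means, with the contrast of day 9 minus day 0, Benjamini-Hochberg adjustment and a threshold of 0.05. The scripts were tested on simulated data. A gene was read from its brightest tested probe set. The difference between cell models was an interaction term. Alternatives were an ordinary ANOVA, other normalizations, filters, a pseudocount of 16, array weights, the 6 arrays alone, a replicate block, other ways to read a gene and each array left out in turn. The study's methods also name an ANOVA, and the one used here took the same filtered values and 6 groups as limma. The same replicate numbers occur in both groups, but deviations of same-numbered arrays did not correlate (-0.05 to 0.07), and no source used here ties the numbers to culture rounds, so arrays were not paired. Members and gene lists were chosen with earlier results of these data known; no list was tested. Genes were named by rule (POLG and mtDNA transcripts; the 14 largest rises and falls with days apart and both groups above the filter; up to 4 called and 2 bright uncalled members per list; genes with opposed probe sets or the smallest p for the difference), and further members of lists, with RPL30, after their values were seen. DN-POLG days 3 and 6 entered the model only, and 143B arrays were not used here.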

Additional observations from a re-analysis of the deposited data

Results flagged for a closer look

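Probe sets without a gene symbol were left out of the counts of genes. Of 3061 such probe sets above the signal filter, 208 (6.8%) were called by limma in day 9 against day 0 NDI1/AOX cells, 50 higher and 158 lower, a signal outside the main measurement. What transcripts they read was not determined here.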

How the results depend on the processing

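Against 1395 genes called (194 higher, 1201 lower), 893 (94 higher, 799 lower) were called with no signal filter, 4020 (1516 higher, 2504 lower) with only the 6 NDI1/AOX arrays in the limma model, 5146 (2098 higher, 3048 lower) with array weights and 2188 (518 of them higher on some set) when a gene counted on any probe set. Setting the arrays to one median gave 307 higher and 687 lower, and quantile normalization 289 and 942. The ordinary ANOVA called 1422 genes (264 higher, 1158 lower). The study reported no significant gene between these days after its own correction for false discovery rate, and why the counts differ was not tested. With 1 array left out, 708 to 1028 genes were called, 67 to 135 higher and 641 to 932 lower. The difference between cell models was called for 1 gene with no filter, for 13 with array weights, and for 0 to 2 with 1 array left out. Cultures of both days came from shared rounds, but no source used here ties the replicate numbers to rounds, and same-numbered arrays did not deviate together (correlations -0.05 to 0.07). The replicate block gave 1162 genes (139 higher, 1023 lower), and under it CEBPB, DNAJB4, FPGS, INO80, KAT6B, KAT7, MRM1, MRPL16, NDUFAF1, NSD3, OSR2, PABIR3, POLE2, SESN1, SLC25A26, SMS, UHRF2, UQCRB and ZBTB43 no longer passed.

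GATA3 (0.09) read -0.09 without probe sets that match several transcripts. Signs reversed after quantile normalization for ASNS (-0.11) and COX1 (-0.28), and COX1 ran between -0.02 and 0.09 with 1 array left out (-0.01 without day 9 replicate 2). With probe sets averaged, GTF3C4 (-0.51), MRTFB (0.35), TRIO (0.36) and ZBTB24 (0.88) reversed, and their sets disagree in direction. Of 2363 values for the 143 genes named, 1947 kept direction and side of the threshold, 396 fell short of it, 11 passed it and 9 reversed. The cause of the other changes was not tested. The number of arrays, 3 a group, limits the precision (median standard error 0.28 on the log2 scale).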

Other observations

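Few genes of central carbon metabolism were called in the model of 18 arrays, which called 1.6% of all genes higher and 9.92% lower. In NDI1/AOX cells 0 of 18 TCA cycle genes, 0 of 19 genes of pyruvate entry and acetyl-CoA supply, 0 of 9 of NADH shuttles and lactate and 0 of 20 of NAD synthesis were called by limma, with median log2 fold changes of 0.23, 0.09, 0.19 and 0.05, and 1 of 20 glycolysis genes was higher (median 0.35), PFKFB2, which sets the level of a fructose bisphosphate that activates glycolysis (0.93, adjusted p = 0.0235, lost without day 9 replicate 2 or day 0 replicate 1 or 3 at 0.0783 to 0.0975). The model of the 6 NDI1/AOX arrays alone called 4 of the TCA cycle genes higher and 1 lower, where it called 12.5% of all genes higher and 20.7% lower. It called 7 glycolysis genes higher and 0 lower, and 4 genes of pyruvate entry and acetyl-CoA supply higher and 0 lower. For NADH shuttles and lactate it gave 2 and 0, and for NAD synthesis 3 and 1. In 13 of the 20 glycolysis genes the day 9 arrays lay above the day 0 arrays, against 25.0% of all tested genes. The glycolysis median was 0.15 after quantile normalization.

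Few genes of protein turnover and DNA replication were called either. Of 41 proteasome subunits 0 were called (median 0.26), of 25 endoplasmic reticulum stress genes 0 were called (median -0.17), and of 45 DNA replication genes 1 was higher, MCM5 of the replicative helicase (1.25, adjusted p = 0.019), and 1 lower, POLE2 of DNA polymerase epsilon (-0.82, adjusted p = 0.0284), with a median of 0.09. MCM5 lost its call without day 9 replicate 3 or day 0 replicate 2 or 3 (adjusted p = 0.0565 to 0.0933) and POLE2 with any array left out (0.0578 to 0.107). The model of the 6 NDI1/AOX arrays alone, with 12.5% of all genes higher and 20.7% lower, called 8 proteasome subunits higher and 0 lower. It called 0 endoplasmic reticulum stress genes higher and 6 lower, and 6 DNA replication genes higher and 4 lower. In 29 of the 41 proteasome subunits the day 9 arrays lay above the day 0 arrays, against 25.0% of all tested genes. The proteasome median was 0.10 after quantile normalization.

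In methyl group metabolism, MTRR, which reactivates methionine synthase, had a signal of 619, 465 and 874 on day 9 and 1438, 1408 and 1575 on day 0 (-1.22, adjusted p = 0.00297 from limma), and MAT2A, which makes S-adenosylmethionine, had 986, 1461 and 939 on day 9 and 2147, 2981 and 3400 on day 0 (-1.34, adjusted p = 0.0287), a call lost without day 9 replicate 1 or 3 or day 0 replicate 2 or 3 (adjusted p = 0.0911 to 0.122). They were the 2 called of 16 methionine cycle genes (median 0.03), or 12.5% called lower against 9.92% of all genes. FPGS, which retains folates in cells (1.45, adjusted p = 0.0381), and SMS, spermine synthase (0.59, adjusted p = 0.0342), were higher, calls lost with any array left out (adjusted p = 0.0636 to 0.144 for FPGS and 0.0662 to 0.151 for SMS).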
